A study of Mus musculus with 14 samples.

Results

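Hepatic xenobiotic receptors and their cytochrome P450 targets were followed as 8 genes chosen by name from the 25212 genes with counts: the receptors *Nr1i2* (PXR), *Nr1i3* (CAR) and *Ahr*, the electron donor *Por*, and the target enzymes *Cyp3a11*, *Cyp3a13*, *Cyp3a25* and *Cyp1a2*. All 8 passed the filter on low counts, as did 14252 genes in all. The mice were male C57BL/6 animals made obese on a high-fat diet (HFD) before surgery, and each liver gave 1 RNA library. The DIO group (5 livers) was obese and had no operation, so that it was not a sham control. In the GB-IL group (4 livers) the common bile duct was tied and the gallbladder joined to the ileum, and in the RYGB group (5 livers) a Roux-en-Y gastric bypass was made. All 3 groups shared the HFD, and by the labels the livers were taken 8 weeks after surgery or, in DIO, after none.

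PXR and CAR are nuclear receptors that bind DNA with a retinoid X receptor partner and raise transcription of *Cyp3a*, *Cyp2b*, *Cyp2c* and conjugation genes when drugs, bile acids or other small molecules are present. The aryl hydrocarbon receptor binds planar aromatic compounds, pairs with ARNT and drives *Cyp1a* genes. Every microsomal P450 takes electrons from the reductase encoded by *Por*, and hepatocytes around the central vein hold most of these enzymes.

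Libraries held 18223135 to 28656631 counts in total. Levels are CPM, the counts of a gene scaled to a common library size by TMM, and group means carry the SD of their livers. Differences are log2 fold changes with their standard error (SE) from edgeR's quasi-likelihood test over all genes tested, with p-values adjusted after Benjamini and Hochberg at a false discovery rate (FDR) of 0.05. Adjusted p-values are of this kind unless another tool is named. GB-IL and RYGB were each compared with the same DIO livers, so those comparisons share their controls.

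Some livers stood apart from their groups. Principal component 1 (48.5% of the variance) placed GB-IL livers 1, 2 and 3 at 134, 106 and 20.1. It placed GB-IL liver 4 at -35.4, among the DIO livers at -45.7 to -21.9. RYGB liver 5 was at 17.4, above the other RYGB livers at -33.8 to -2.14, a range that overlapped that of DIO. The common biological coefficient of variation was 0.244 in DIO, 0.295 in RYGB and 0.543 in GB-IL. The acute phase genes, 10 of 10 in the table and led by *Hpx*, summed to 56500, 76510 and 97110 CPM of the total count in GB-IL livers 1, 2 and 3, to 8591 in GB-IL liver 4 and to between 7018 and 12020 in DIO. Pancreatic acinar genes (5 in the table, led by *Ctrb1*) summed to 1240 CPM in GB-IL liver 1 and to at most 1.35 CPM in the other livers.

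*Ahr* was higher in all 5 RYGB livers than in any DIO liver. *Cyp3a13* was higher in 3 of 4 GB-IL livers than in any DIO or RYGB liver, *Por* was higher in 3 of 4 than in any RYGB liver, and *Cyp1a2* was lower in 3 of 4 than in any DIO liver. By edgeR none of the 8 genes passed the FDR in any comparison. In GB-IL against DIO the test called 0 of 8, with 3.26% of all genes called, and at an unadjusted p below 0.05 it gave 2 of 8, with 23.1% of all genes. In RYGB against DIO it called 0 of 8 and 0% of all genes, and 1 of 8 at an unadjusted p below 0.05, with 8.71% of all genes. In GB-IL against RYGB it called 0 of 8 and 0% of all genes, and 3 of 8 at an unadjusted p below 0.05, with 22.1% of all genes. Groups did not overlap for 0 of 8 genes in GB-IL against DIO (4.17% of all genes) and for 0 of 8 in GB-IL against RYGB (2.84%). Limma voom with sample quality weights called 0, 3 and 0 of the 8, with 4.13%, 11.9% and 0.807% of all genes called in GB-IL against DIO, RYGB against DIO and GB-IL against RYGB. DESeq2 called 0, 0 and 1, with 8.06%, 0.596% and 5.44% of all genes, the 1 being *Por* in GB-IL against RYGB.

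**Figure D1:**
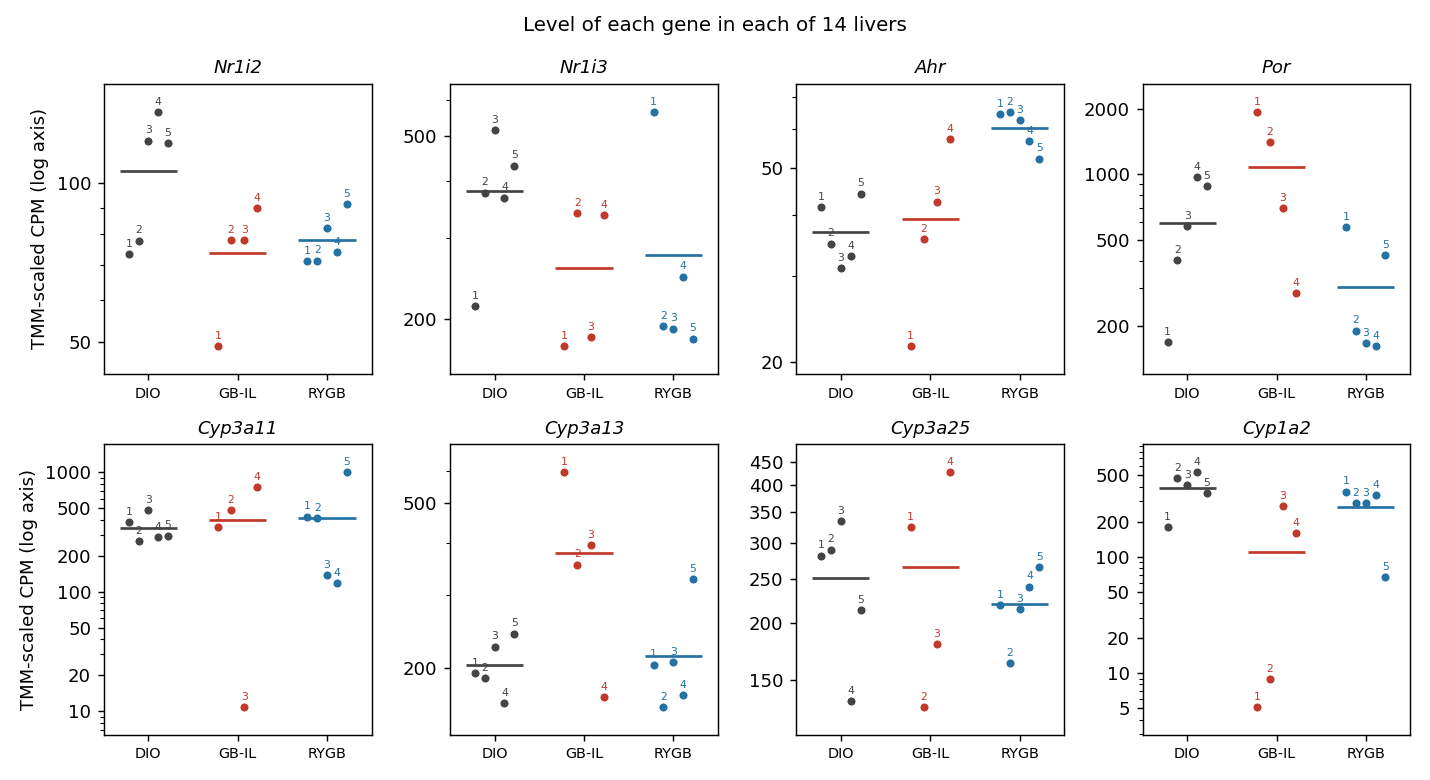
Level of each of the 8 genes in TMM-scaled CPM (log axis) in each liver, with the replicate number beside each point and a line at the group mean. The RYGB livers lie above every DIO liver for *Ahr*, GB-IL livers 1 and 2 hold the 2 lowest *Cyp1a2* values, and GB-IL liver 3 holds the lowest *Cyp3a11* value.

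Among the receptors, *Ahr* was the gene whose RYGB livers lay apart from DIO. *Ahr* (ENSMUSG00000019256, chromosome 12, 35497974 to 35535038, minus strand of GRCm38) had 41.6, 35.0, 31.1, 33.0 and 44.3 CPM in DIO livers 1 to 5. The RYGB livers 1 to 5 had 64.4, 65.2, 62.6, 56.8 and 52.2 CPM. All 5 RYGB livers were above the highest DIO liver, a separation in either direction found for 1 of 8 genes here and for 3.53% of all genes. The log2 fold change of *Ahr* in RYGB against DIO was 0.70 (SE 0.210, edgeR adjusted p = 0.387, higher in 5 of 5 livers).

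The call for *Ahr* in RYGB depended on the test. Over the 20 alternatives its adjusted p ran from 0.0103 with limma voom and sample quality weights, which called 11.9% of all genes, to 0.862, and its log2 fold change from 0.65 to 0.78. The edgeR fit of only the 2 groups compared called *Ahr* too, with 0.242% of all genes called. In GB-IL the *Ahr* values were 21.6, 35.7, 42.7 and 57.3 CPM in livers 1 to 4, spread on both sides of the DIO range. The log2 fold change in GB-IL against DIO was 0.09 (SE 0.222, edgeR adjusted p = 0.822, 1 of 4 livers above every DIO liver), and it was -0.16 without GB-IL liver 4, and 0.28 with replicate 1 removed instead. GB-IL against RYGB gave -0.62 (SE 0.224, edgeR adjusted p = 0.153, 3 of 4 livers below every RYGB liver). Without GB-IL liver 4 this was -0.86 with an adjusted p of 0.0158 by edgeR, in a fit that called 21.5% of all genes, and over the alternatives the adjusted p reached 0.321. With GB-IL liver 1 left out it was -0.42.

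*Nr1i2* (ENSMUSG00000022809, chromosome 16, 38248323 to 38294824, minus strand) encodes PXR, the main sensor for *Cyp3a* induction. Its DIO livers 1 to 5 had 73.5, 77.9, 120.6, 136.8 and 119 CPM. The GB-IL livers 1 to 4 had 49.1, 77.9, 78.0 and 89.9 CPM, and the RYGB livers 1 to 5 had 71.1, 71.3, 82.2, 74.2 and 91.4 CPM. DIO livers 3, 4 and 5 were above every operated liver, whereas DIO livers 1 and 2 lay among them, so the groups overlapped. On the log2 scale GB-IL differed from DIO by -0.52 (SE 0.221, edgeR adjusted p = 0.182, 1 of 4 livers below the DIO range) and RYGB by -0.44 (SE 0.207, adjusted p = 0.577, 2 of 5 livers below every DIO liver). The GB-IL value was -0.64 without GB-IL liver 4, and -0.37 with replicate 1 removed instead. Over the alternatives the adjusted p in RYGB ran from 0.0230 with limma voom, the 1 setting that called it, to 0.939. GB-IL against RYGB gave a log2 difference of -0.08 (95% interval -0.55 to 0.39).

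*Nr1i3* (ENSMUSG00000005677, chromosome 1, 171213970 to 171220701, plus strand) encodes CAR, which acts on *Cyp2b* and shares many targets with PXR. It had 213, 376.5, 514.5, 367 and 431 CPM in DIO livers 1 to 5. In GB-IL livers 1 to 4 there were 175, 339.7, 183 and 336 CPM, and the RYGB livers 1 to 5 had 564, 193, 190.6, 247 and 181 CPM. RYGB liver 1 was the highest of all 14, and 3 of 5 RYGB and 2 of 4 GB-IL livers were below every DIO liver. As log2 fold change this was -0.56 in GB-IL (SE 0.372, edgeR adjusted p = 0.356, with -0.72 when GB-IL liver 4 and -0.41 when GB-IL liver 1 was left out) and -0.47 in RYGB (SE 0.348, adjusted p = 0.730, and -0.90 without RYGB liver 1). In GENCODE M21, 74.9% of the *Nr1i3* exon bases also lie in exons of *Tomm40l* on the opposite strand. The labels name stranded library kits, whereas the paper describes amplified cDNA. The strand setting of the counting is not given in the sources used here, so reads of this overlap cannot be told apart. *Tomm40l* itself had 2.26 to 12.3 CPM over the 14 livers. It was highest in RYGB liver 1, the highest in *Nr1i3*, followed by GB-IL liver 1 at 11.1 CPM, the lowest in *Nr1i3*. The part of the overlap in the *Nr1i3* values was not tested.

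*Por* (ENSMUSG00000005514, chromosome 5, 135670033 to 135735326, plus strand) had 169, 401, 578, 969 and 877 CPM in DIO livers 1 to 5. GB-IL livers 1 to 4 had 1935, 1404, 695 and 284.5 CPM, and the RYGB livers 1 to 5 had 570.2, 190.5, 167, 162 and 424 CPM. GB-IL livers 1 and 2 were above every DIO liver, 3 of 4 GB-IL livers were above every RYGB liver, and GB-IL liver 4 lay inside the RYGB range. *Por* also varied within DIO, with a coefficient of variation of 55.3% against a median of 17.2% over 9342 genes with at least 5 CPM.

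The log2 difference of *Por* between GB-IL and RYGB was 1.83 (SE 0.583, edgeR adjusted p = 0.119). Over the alternatives it ran from 1.39 to 2.19 with adjusted p from 0.0178 to 0.285, the lowest without GB-IL liver 4. Against DIO the log2 differences were 0.85 for GB-IL (SE 0.576, edgeR adjusted p = 0.364, 2 of 4 livers above the DIO range) and -0.98 in RYGB (SE 0.550, adjusted p = 0.641, 2 of 5 livers below every DIO liver). With limma voom the latter was -1.66 with an adjusted p of 0.0209, and over all alternatives the adjusted p reached 0.995. The GB-IL difference from DIO was 0.41 without GB-IL liver 1, 0.09 with limma voom and 1.16 without GB-IL liver 4.

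The target enzymes were high or low in different livers. *Cyp3a13* (ENSMUSG00000029727, chromosome 5, 137892932 to 137921619, minus strand) had 195, 189, 225, 164 and 242 CPM in DIO livers 1 to 5. In GB-IL livers 1 to 4 there were 594, 355.5, 397 and 170.1 CPM, and the RYGB livers 1 to 5 had 203.5, 161, 206, 172 and 328 CPM. GB-IL livers 1, 2 and 3 were above every DIO and every RYGB liver, and GB-IL liver 4 was within both ranges. The log2 fold change in GB-IL against DIO was 0.90 (SE 0.301, edgeR adjusted p = 0.104, 3 of 4 livers above every DIO liver).

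Without GB-IL liver 1 the log2 difference of *Cyp3a13* from DIO was 0.59, and that from RYGB was 0.51. Without GB-IL liver 4 the difference from DIO was 1.14 with an adjusted p of 0.00676 by edgeR, in a fit that called 24.6% of all genes, and over the alternatives the adjusted p reached 0.354. GB-IL against RYGB gave 0.82 (SE 0.301, edgeR adjusted p = 0.153), and 1.06 without GB-IL liver 4 (adjusted p = 0.0132 by edgeR, and up to 0.370 over the alternatives). In RYGB against DIO it was 0.08 (95% interval -0.53 to 0.69). The GB-IL livers with high *Cyp3a13* were those with high acute phase sums, and 9 of 10 acute phase genes passed the FDR upward in GB-IL against DIO, where 3.26% of all genes were called (median log2 fold change 3.24, against 0.04 over all genes tested). When replicate 1 or 2 of GB-IL, or any single DIO mouse, was removed, 0 of all genes were called there, and so 0 acute phase genes. Neutrophil markers, led by *S100a9*, summed to 108, 47.6, 254 and 6.54 CPM in GB-IL livers 1 to 4 and to at most 10.9 CPM in DIO. In RYGB livers 1 to 5 the acute phase genes summed to 25370, 15400, 13480, 10500 and 28850 CPM and the neutrophil markers to 12.5, 7.45, 7.40, 10.3 and 83.7 CPM, and liver 5 had the highest *Cyp3a13* of the group. The part of either in the *Cyp3a13* values was not tested.

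*Cyp1a2* (ENSMUSG00000032310, chromosome 9, 57676937 to 57683703, minus strand), the hepatic target of AhR, had 179.9, 471, 412, 529.5 and 351 CPM in DIO livers 1 to 5. GB-IL livers 1 to 4 had 5.15, 8.92, 271 and 159 CPM, from 98 and 158 counts in livers 1 and 2. The RYGB livers 1 to 5 had 362, 288, 289.7, 340.1 and 66.6 CPM. GB-IL livers 1 and 2 and RYGB liver 5 were the 3 lowest of all 14, and 3 of 4 GB-IL livers were below every DIO liver. GB-IL differed from DIO by -1.81 on the log2 scale (SE 0.875, edgeR adjusted p = 0.229), and by -2.03 without GB-IL liver 4. With GB-IL liver 3 left out it was -2.76, and with GB-IL liver 1 left out -1.43. RYGB differed from DIO by -0.53 (SE 0.786, adjusted p = 0.882, 1 of 5 livers below every DIO liver), and by -0.27 without RYGB liver 5.

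The same livers had the 3 lowest sums over 10 pericentral hepatocyte markers, all in the table, of which *Cyp2e1* made up 69.4% of the sum. The markers summed to 4455, 2629, 10230 and 11180 CPM in GB-IL livers 1 to 4, to 14790, 8893, 12450, 13050 and 3294 CPM in RYGB livers 1 to 5, and to between 9005 and 12690 CPM in DIO. Of these markers 9 of 10 had a negative log2 fold change in GB-IL, with 0 past the FDR and a median of -0.48, and in RYGB 6 of 10 were higher and 4 lower than in DIO, with a median of 0.11. Hepatocyte markers, led by *Alb*, summed to between 106500 and 176300 CPM over the 14 livers. Fewer cells of a type and less RNA per cell cannot be told apart in bulk liver, and the part of either in the *Cyp1a2* values was not tested.

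**Figure D2:**
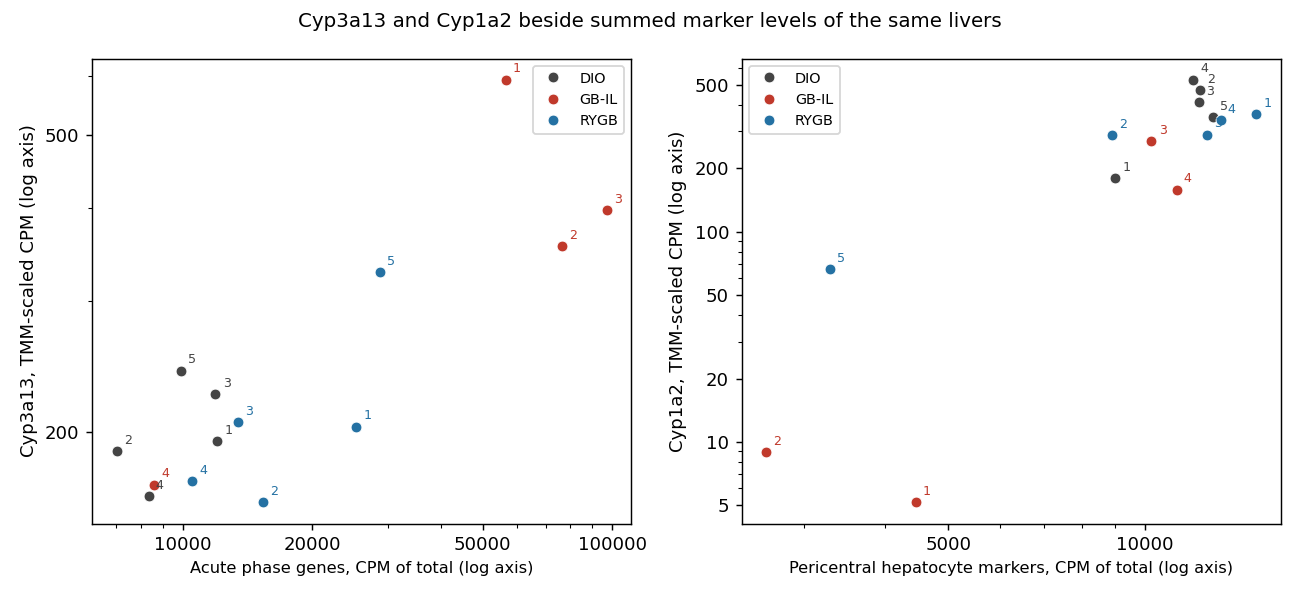
*Cyp3a13* beside the summed acute phase genes (left) and *Cyp1a2* beside the summed pericentral markers (right), 1 point per liver with its replicate number, both axes logarithmic. GB-IL livers 1, 2 and 3 lie at the upper right on the left, and GB-IL livers 1 and 2 and RYGB liver 5 lie at the lower left on the right.

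*Cyp3a11* (ENSMUSG00000056035, chromosome 5, 145854426 to 145879964, minus strand), a target of PXR, had 381, 267, 483, 289 and 296 CPM in DIO livers 1 to 5. In GB-IL livers 1 to 4 there were 350.5, 482, 10.9 and 748 CPM, and the RYGB livers 1 to 5 had 426, 415, 137, 119 and 998 CPM. GB-IL liver 3 was the lowest of all 14, with 258 counts, and RYGB liver 5 the highest, with 28831 counts. In RYGB the coefficient of variation was 84.8%, above that of 98.8% of 9480 genes, and the groups overlapped. As a log2 fold change this gave 0.21 in GB-IL (95% interval -1.42 to 1.85) and 0.29 in RYGB (95% interval -1.26 to 1.83). Both changed sign among the alternatives, from -2.46 to 0.62 and from -0.48 to 0.53, and they were -0.30 without GB-IL liver 4 and -0.32 without RYGB liver 5.

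*Cyp3a25* (ENSMUSG00000029630, chromosome 5, 145977194 to 146009618, minus strand) had 281, 289.6, 334, 135 and 213 CPM in DIO livers 1 to 5. GB-IL livers 1 to 4 had 325, 131, 179.8 and 427 CPM, and the RYGB livers 1 to 5 had 219, 164, 215, 240.6 and 265 CPM. GB-IL liver 4 was the highest and GB-IL liver 2 the lowest, and every RYGB liver was inside the DIO range. On the log2 scale the difference was 0.09 in GB-IL (95% interval -0.61 to 0.78) and -0.18 in RYGB (95% interval -0.84 to 0.48). The former was -0.25 without GB-IL liver 4, and the latter 0.00045 with limma voom.

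**Figure D3:**
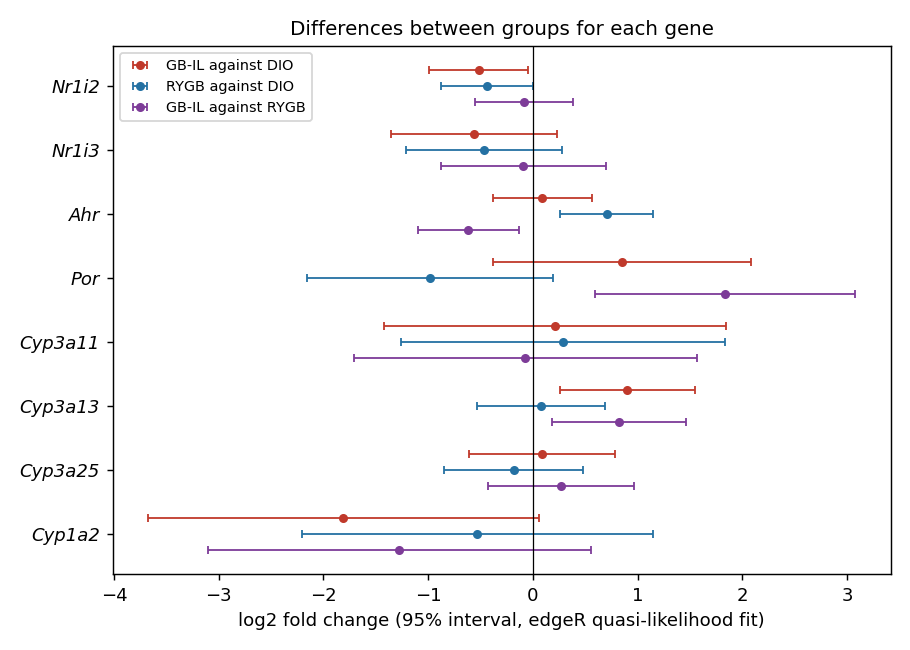
Log2 fold change of each gene in the 3 comparisons, with bars for the 95% interval derived from edgeR's quasi-likelihood fit. The widest intervals are those of *Cyp3a11* and *Cyp1a2*, and the interval of *Ahr* in RYGB against DIO runs from 0.26 to 1.15.

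Per kilobase of merged exons, the order of the mean levels in DIO was *Cyp1a2* (193 ± 66.8 CPM per kb, SD, n = 5), *Por* (149 ± 82.4), *Cyp3a25* (120.3 ± 37.3), *Nr1i3* (86.2, from 380.6 ± 110.4 CPM), *Cyp3a13* (68.6 ± 10.4), *Cyp3a11* (67.4 ± 17.6), *Nr1i2* (41.4 ± 11.04) and *Ahr* (6.003 ± 0.921). Each neighbouring pair from *Cyp1a2* to *Cyp3a11* differed by less than the larger SD of the pair, whereas *Nr1i2* was below *Cyp3a11* and *Ahr* below *Nr1i2* by more than the larger SD. In GB-IL the highest mean was that of *Por* (268.5 ± 183 CPM per kb, SD, n = 4) and that of *Cyp1a2* was 55.1 ± 63.8. In RYGB the highest was *Cyp1a2* (134 ± 58.5 CPM per kb, SD, n = 5), followed by *Cyp3a25* (106 ± 18.03), and *Ahr* stood at 9.78 ± 0.902. The places depend on the length used. With the longest transcript as the length, *Por* (227 CPM per kb) was above *Cyp1a2* (200.4) in DIO, where *Nr1i3* was at 128 and *Cyp3a11* at 122.5. In RYGB *Cyp3a11* (149.6) was then the highest, followed by *Cyp1a2* (139), *Por* (115) and *Cyp3a25* (110.3). That *Cyp3a11* mean includes RYGB liver 5 at 998 CPM, with the other RYGB livers at 119 to 426 CPM.

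The *Cyp3a* genes are close paralogs, so reads can be assigned to the wrong copy or left uncounted. Over the coding sequence *Cyp3a25* was 97.5% identical to *Cyp3a59* and *Cyp3a11* 95.2% identical to *Cyp3a41a*, whereas *Cyp3a11*, *Cyp3a13* and *Cyp3a25* were 76.0% to 76.5% identical to each other. Of all stretches of 50 bases in the *Cyp3a25* transcripts, 26.8% also occurred in another gene, 25.2% in *Cyp3a59*. For *Cyp3a11* the share was 6.73% and for *Cyp3a13* it was 0%. At 100 bases these shares were 6.79% for *Cyp3a25*, 0.142% for *Cyp3a11* and 0% for *Cyp3a13*, and the read length is not given in the sources used here. *Cyp3a59*, the other tested gene of the family, had 8.28 ± 5.56 CPM in DIO (SD, n = 5), 11.1 ± 6.57 in GB-IL (n = 4) and 9.75 ± 8.01 in RYGB (n = 5), with log2 differences from DIO of 0.42 for GB-IL (SE 0.566, edgeR adjusted p = 0.651) and 0.24 in RYGB (SE 0.536, adjusted p = 0.927). Both changed sign with 1 liver left out, to -0.08 without GB-IL liver 4 and to -0.38 without RYGB liver 5, and they were 0.88 and 0.70 without DIO liver 3. *Cyp3a16*, *Cyp3a41a*, *Cyp3a41b*, *Cyp3a44* and *Cyp3a57* had too few counts for the edgeR filter, at most 79 summed over a group, for *Cyp3a44* in GB-IL. Of the stretches of 50 bases, 98.6% in *Cyp3a41a* and 93.5% in *Cyp3a41b* also occurred in another gene, mostly each other. How reads matching several genes were counted is not given, so low counts need not mean low expression of these copies. DESeq2 called *Cyp3a44* in GB-IL against DIO (log2 difference 4.70, SE 1.59, adjusted p = 0.0433), and edgeR without the filter did not (adjusted p = 0.0916). *Cyp3a44* had 2.47, 1.69, 0 and 0.0738 CPM in GB-IL livers 1 to 4, and 0 to 0.102 CPM in DIO.

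Reads assigned to the wrong copy or left uncounted were not measured. The longest run shared exactly by the coding sequences of *Cyp3a25* and *Cyp3a59* is printed here. It spans 162 bases, positions 350 to 511 of both coding sequences, across 2 exons, at chr5:145993283-145994947 on the minus strand for *Cyp3a25* and chr5:146094378-146096330 on the plus strand for *Cyp3a59* (GRCm38, GENCODE M21 transcripts). Capitals mark the shared run, with 10 bases on either side.
Cyp3a25: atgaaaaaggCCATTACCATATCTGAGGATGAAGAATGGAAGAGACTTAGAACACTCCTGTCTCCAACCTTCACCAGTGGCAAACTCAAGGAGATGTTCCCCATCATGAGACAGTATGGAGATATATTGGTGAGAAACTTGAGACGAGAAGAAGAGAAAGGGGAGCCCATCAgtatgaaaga
Cyp3a59: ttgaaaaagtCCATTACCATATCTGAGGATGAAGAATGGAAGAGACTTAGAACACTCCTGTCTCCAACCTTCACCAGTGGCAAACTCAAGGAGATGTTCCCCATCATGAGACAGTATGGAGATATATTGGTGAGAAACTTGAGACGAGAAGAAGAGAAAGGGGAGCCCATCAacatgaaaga

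**Figure D4:**
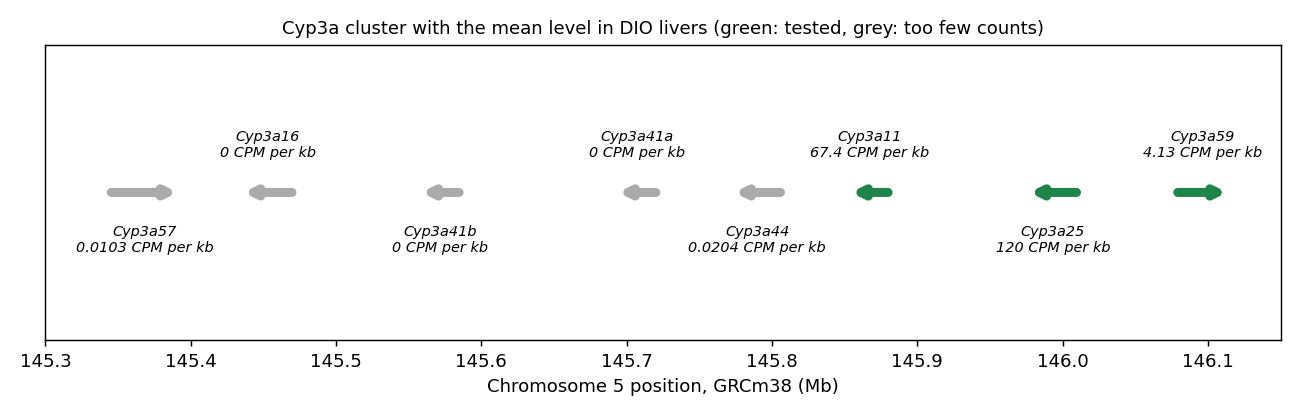
Positions (Mb) of the clustered *Cyp3a* genes on chromosome 5 (GRCm38), with arrows in the direction of transcription and the mean level in DIO livers in CPM per kb. *Cyp3a11*, *Cyp3a25* and *Cyp3a59* passed the edgeR filter, and the genes in grey did not.

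Within the *Cyp3a* family *Cyp3a11* took 35.4% to 49.0% of the counts in DIO livers. In GB-IL livers 1 to 4 its share was 27.3%, 49.3%, 1.84% and 54.8%, and *Cyp3a13* took 46.3%, 36.3%, 66.8% and 12.5%. In RYGB livers 1 to 5 the *Cyp3a11* share was 49.6%, 55.8%, 24.4%, 22.1% and 61.8%. By counts the family was led by *Cyp3a13* in GB-IL livers 1 and 3, and by *Cyp3a25* in DIO liver 2 and RYGB livers 3 and 4. These shares are not scaled for length, and the merged exons hold 5093 bases for *Cyp3a11*, 2956 for *Cyp3a13* and 2083 for *Cyp3a25*. Per kilobase of merged exons the DIO mean was 120.3 CPM for *Cyp3a25* and 67.4 CPM for *Cyp3a11*. By the longest transcript these means were 125.3 and 122.5 CPM.

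Because these target genes differed among themselves from liver to liver, their promoter windows (250 bases before to 50 after the start, RefSeq, GRCm38.p6) are shown for comparison. The RefSeq table held windows for 7 of the 8 genes. The motifs searched, on both strands, were the AhR core GCGTG and the nuclear receptor half-sites AGTTCA and AGGTCA. They occurred in 32.4%, 13.99% and 16.3% of all 32851 windows of this length. The *Cyp3a11* window held 1 AGTTCA and 1 AGGTCA, the *Cyp3a25* window 2 AGGTCA, the *Por* window 3 GCGTG, and the *Nr1i2*, *Nr1i3*, *Cyp3a13* and *Cyp1a2* windows 0 of the 3 motifs. Those of the target enzymes are printed. A match is a description of letters, and its absence says nothing of sites outside the window. Capitals mark the motifs, for *Cyp3a11* at chr5:145879805-145880104, *Cyp3a25* at chr5:146009569-146009868, *Cyp3a13* at chr5:137921570-137921869 and *Cyp1a2* at chr9:57683606-57683905, all on the minus strand.
Cyp3a11: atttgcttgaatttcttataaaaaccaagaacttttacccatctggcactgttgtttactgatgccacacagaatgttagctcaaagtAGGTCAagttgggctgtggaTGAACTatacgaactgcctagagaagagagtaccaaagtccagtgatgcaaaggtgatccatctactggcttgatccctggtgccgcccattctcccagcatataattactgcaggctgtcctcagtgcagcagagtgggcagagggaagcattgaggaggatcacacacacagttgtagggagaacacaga
Cyp3a25: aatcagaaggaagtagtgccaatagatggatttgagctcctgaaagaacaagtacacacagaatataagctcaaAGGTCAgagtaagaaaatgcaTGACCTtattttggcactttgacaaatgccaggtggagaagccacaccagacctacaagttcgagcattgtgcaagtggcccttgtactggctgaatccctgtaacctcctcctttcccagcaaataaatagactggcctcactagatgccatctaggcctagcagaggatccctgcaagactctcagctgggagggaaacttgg
Cyp3a13: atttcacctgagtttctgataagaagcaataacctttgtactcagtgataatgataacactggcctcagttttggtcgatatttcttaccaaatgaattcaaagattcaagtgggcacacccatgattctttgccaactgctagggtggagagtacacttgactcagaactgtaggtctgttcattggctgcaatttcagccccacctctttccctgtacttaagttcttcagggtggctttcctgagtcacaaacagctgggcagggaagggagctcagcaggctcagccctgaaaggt
Cyp1a2: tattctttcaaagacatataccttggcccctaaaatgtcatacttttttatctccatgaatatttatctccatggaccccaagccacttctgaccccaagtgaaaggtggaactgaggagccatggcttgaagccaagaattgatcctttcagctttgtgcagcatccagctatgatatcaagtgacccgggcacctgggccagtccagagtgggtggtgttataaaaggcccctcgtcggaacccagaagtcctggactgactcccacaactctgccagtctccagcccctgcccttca

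Of 23 other CAR and PXR targets, all tested, 1 rose and 0 fell past the FDR in GB-IL against DIO, where 3.26% of all genes were called (8 of 23 unadjusted, 4 by DESeq2 and 3 by limma voom, against 23.1%, 8.06% and 4.13% of all genes). Of the 23, 5 were higher and 18 lower, with a median log2 fold change of -0.49 (all genes tested 0.04). Of 10 pericentral hepatocyte markers 9 were also lower there, with a median of -0.48, and their part in this shift was not tested. The 1 target called by edgeR was *Sult1e1*, an oestrogen sulfotransferase, with 97.4, 440.7, 3.90 and 0.627 CPM in GB-IL livers 1 to 4 and 0.254 to 1.20 CPM in DIO. Its log2 fold change was 7.99 (SE 1.59, edgeR adjusted p = 0.0278, 3 of 4 livers above every DIO liver), 5.98 without GB-IL liver 2, and from 3.22 to 8.57 over the alternatives. In RYGB against DIO 0 of 23 passed by edgeR (2 at an unadjusted p below 0.05, 1 by DESeq2, 2 by limma voom, against 8.71%, 0.596% and 11.9% of all genes), with a median of -0.30 (all genes tested 0.01). The glutathione transferase *Gsta1* had -2.62 (SE 0.732, edgeR adjusted p = 0.370, and -2.84 to -1.96 over the alternatives), and 5 of 5 RYGB livers were below the DIO range. The CAR target *Cyp2b10* had -3.95 (SE 1.36, adjusted p = 0.468), with 4 of 5 below, and was -7.29 without RYGB liver 5 and -2.59 without DIO liver 5, whereas *Gstt1* had -0.80 (SE 0.388, adjusted p = 0.579). *Gsta1* and *Cyp2b10* were near the floor in RYGB, with 51 and 52 counts summed over its livers, against 262 and 620 in DIO. In GB-IL against RYGB 0 of 23 passed by edgeR (7 unadjusted, 4 by DESeq2, 1 by limma voom, against 22.1%, 5.44% and 0.807% of all genes), and the smallest p-values were those of *Sult1e1* (6.83, SE 1.48), *Gsta1* (3.39, SE 0.760) and *Cyp2c54* (-2.15, SE 0.630) as log2 differences. Over the alternatives these ran from 4.32 to 8.05, from 1.12 to 3.78 and from -2.58 to -1.80, and *Sult1e1* was at 4.84 without GB-IL liver 2.

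Of 8 other AhR targets, 6 passed the edgeR filter, and 1 rose and 0 fell past the FDR in GB-IL against DIO, where 3.26% of all genes were called (median log2 fold change 0.01). Of the 6, 3 passed unadjusted, 1 by DESeq2 and 1 by limma voom, against 23.1%, 8.06% and 4.13% of all genes. The called gene was *Cyp1b1*, a P450 of mostly extrahepatic cells, with 8.04, 3.445, 2.25 and 1.14 CPM in GB-IL livers 1 to 4 and 0.566 to 0.942 CPM in DIO. Its log2 fold change was 2.28 (SE 0.465, edgeR adjusted p = 0.0278, 4 of 4 livers above every DIO liver), 1.57 without GB-IL liver 1, and from 1.53 to 2.58 over the alternatives. In RYGB livers 1 to 5 *Cyp1b1* had 1.26, 0.888, 1.02, 1.28 and 2.08 CPM. Stellate cell markers, 9 in the table and led by *Dcn*, summed to 877, 326, 284 and 402 CPM in GB-IL livers 1 to 4, to 345, 407.5, 368, 439 and 803 CPM in RYGB livers 1 to 5, and to between 238.5 and 369.8 CPM in DIO. GB-IL liver 1, the highest in *Cyp1b1*, also held the 1240 CPM of acinar genes. For RYGB against DIO 0 of 6 passed by edgeR (0 unadjusted, 0 by DESeq2, 0 by limma voom, against 8.71%, 0.596% and 11.9% of all genes), with *Cyp1b1* at 0.79 (SE 0.446), *Cyp1a1* at -0.48 (SE 0.429) and *Ugt1a6b* at -0.34 (SE 0.391, and -0.20 without DIO liver 2). For GB-IL against RYGB 0 of 6 passed by edgeR (2 unadjusted, 1 by DESeq2, 0 by limma voom, against 22.1%, 5.44% and 0.807% of all genes), with *Cyp1b1* at 1.49 (SE 0.446), *Tiparp* at 1.21 (SE 0.435) and *Nqo1* at 0.69 (SE 0.457). Without GB-IL liver 1 *Cyp1b1* was at 0.78 and *Tiparp* at 0.23, and without RYGB liver 1 *Nqo1* was at 1.19. *Ahrr* and *Aldh3a1* did not pass the edgeR filter. DESeq2 and edgeR without the filter called *Aldh3a1* in GB-IL against DIO and in GB-IL against RYGB. *Aldh3a1* had 423 counts in GB-IL, 19.6 and 2.71 CPM of them in livers 1 and 2, against 1 count in DIO and 2 in RYGB.

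Of 18 receptor partners, chaperones and coregulators, 0 passed the FDR in any comparison by edgeR (3.26%, 0% and 0% of all genes in GB-IL against DIO, RYGB against DIO and GB-IL against RYGB). At an unadjusted p below 0.05 there were 2, 0 and 3 (23.1%, 8.71% and 22.1% of all genes), by DESeq2 1, 0 and 0 (8.06%, 0.596% and 5.44%), and by limma voom 0, 2 and 0 (4.13%, 11.9% and 0.807%). The medians of the log2 fold changes were -0.12, 0.06 and -0.08. In GB-IL against DIO the smallest p-values were those of *Rxrg* (-1.22, SE 0.415, 4 of 4 livers below every DIO liver), *Ppargc1a* (1.08, SE 0.401, and 0.60 without GB-IL liver 2) and *Ncor1* (-0.48, SE 0.238). In RYGB against DIO they included those of the chaperone *Hsp90ab1* (-0.43, SE 0.211, 5 of 5 livers below every DIO liver) and *Ppargc1a* (0.58, SE 0.380, and 0.38 without RYGB liver 5). In GB-IL against RYGB they included those of *Rxrb* (0.87, SE 0.294) and *Ncor1* (-0.54, SE 0.238).

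Of 15 tested genes of P450 electron supply and haem, 1 rose and 0 fell past the FDR in GB-IL against DIO, where 3.26% of all genes were called, with 12 lower and a median log2 fold change of -0.34. Pericentral hepatocyte markers were also lower there in 9 of 10, with a median of -0.48, and their part was not tested. Of the 15, 3 passed unadjusted, 1 by DESeq2 and 1 by limma voom, against 23.1%, 8.06% and 4.13% of all genes. The gene called by edgeR was the haem oxygenase *Hmox1*, with 183, 88.4, 104.7 and 34.5 CPM in GB-IL livers 1 to 4 and 24.4 to 35.7 CPM in DIO. Its log2 fold change was 1.76 (SE 0.442, edgeR adjusted p = 0.0437, 3 of 4 livers above every DIO liver), 1.32 without GB-IL liver 1, and at most 2.04 over the alternatives. By edgeR 0 of 15 passed in RYGB against DIO (1 unadjusted, 0 by DESeq2, 2 by limma voom, against 8.71%, 0.596% and 11.9% of all genes), with 13 lower and a median of -0.18, and with *Urod* at -0.47 (SE 0.216), *Blvra* at -0.36 (SE 0.202, and -0.21 without DIO liver 3) and *Blvrb* at -0.42 (SE 0.262, and -0.74 without RYGB liver 1). By edgeR 0 of 15 passed in GB-IL against RYGB (3 unadjusted, 1 by DESeq2, 0 by limma voom, against 22.1%, 5.44% and 0.807% of all genes), with *Hmox1* at 1.43 (SE 0.439, and 0.98 without GB-IL liver 1), *Blvra* at 0.54 (SE 0.212, and 0.33 without GB-IL liver 2) and *Cpox* at -1.04 (SE 0.438, and -1.79 without GB-IL liver 4). *Cyb5a* was not analysed here.

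These calls of *Sult1e1*, *Cyp1b1* and *Hmox1* depended on the test and on which livers were included. They were made in 10, 11 and 7 of the 20 alternatives, with adjusted p-values up to 0.156, 0.0942 and 0.163, and limma voom called *Cyp1b1* but not *Sult1e1* or *Hmox1*. By edgeR, after removal of any single DIO mouse, or of replicate 1 or 2 of GB-IL, 0 of all genes passed in GB-IL against DIO. The fit of only the 2 groups compared called 0 of all genes there too. GB-IL livers 1, 2 and 3, where these genes were highest, also had the high acute phase sums. RNAs without poly(A), led by *Rn7sk*, summed to 3.92, 6.81, 2.80 and 1.45 CPM in GB-IL livers 1 to 4. In DIO they summed to between 0.573 and 2.22 CPM, and in RYGB to between 1.17 and 2.58 CPM. Cholangiocyte markers, 7 in the table and led by *Spp1*, summed to 311, 251, 221 and 72.2 CPM in GB-IL livers 1 to 4, to between 47.8 and 76.2 CPM in DIO and to between 75.8 and 95.5 CPM in RYGB. The part of acute phase, of other cells or of RNAs without poly(A) in these calls was not tested. Of the haem genes 0 passed also after removal of replicate 3 of GB-IL, or of replicate 3 or 4 of RYGB. Without GB-IL liver 4, GB-IL against DIO had 3572 calls among all genes (24.6%) in place of 465, with 11 of the CAR and PXR targets (2 higher, 9 lower), 4 of the AhR targets (2 higher, 2 lower), 3 of the partners (1 higher, 2 lower) and 6 of the haem genes (1 higher, 5 lower).

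Over the 14 livers the genes most like each member, by Pearson r of log2 CPM among 9567 genes, were described without a test. They were *Masp2* (r = 0.986, Spearman 0.890) and *Cebpa* (0.977, 0.833) for *Cyp1a2*, and *Serpina3n* (0.950, 0.851) and *Gtf2a2* (0.946, 0.749) for *Cyp3a13*. For *Por* they were *Snx8* (0.947, 0.947) and *Dnajb6* (0.945, 0.956), for *Ahr* *Hsf2* (0.946, 0.895) and *Pank2* (0.873, 0.728), and for *Nr1i3* *Sirt3* (0.890, 0.916) and *Gstt2* (0.889, 0.811). For *Nr1i2* they were *Pdk2* (0.881, 0.657) and *Supv3l1* (0.880, 0.697), for *Cyp3a25* *Zak* (0.872, 0.895), and for *Cyp3a11* *Crat* (0.869, 0.758) and *Nt5e* (0.787, 0.732). Among the 28 pairs of members, the r furthest from 0 were those of *Cyp3a13* with *Cyp1a2* (r = -0.78, Spearman -0.49), *Ahr* with *Por* (-0.72, -0.63) and *Por* with *Cyp3a13* (0.68, 0.57). The Spearman value furthest from 0 was that of *Nr1i3* with *Cyp1a2* (0.71, r = 0.36). *Nr1i2* and *Cyp3a11* had r = 0.12 (Spearman 0.12), and *Ahr* and *Cyp1a2* 0.47 (Spearman -0.04). Within the 5 DIO livers r was -0.24 for *Cyp3a13* with *Cyp1a2*, -0.26 for *Ahr* with *Por*, 0.08 for *Por* with *Cyp3a13*, 0.76 for *Nr1i3* with *Cyp1a2*, 0.06 for *Nr1i2* with *Cyp3a11* and -0.65 for *Ahr* with *Cyp1a2*. There the r furthest from 0 were 0.90 for *Nr1i2* with *Por* (0.05 over the 14), 0.79 for *Por* with *Cyp1a2* (-0.54) and 0.78 for *Nr1i3* with *Por* (0.26). These livers share groups, so that the values describe the 14 livers only.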

How the data were processed

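Liver RNA was amplified and sequenced on the Illumina HiSeq. TopHat 2 placed the reads on mm10 and HTSeq made the gene counts, and the deposited unit is the raw count. Annotation, strand setting and read length were not stated. By the labels 2 stranded library kits were used, without the livers of each, so that kit was not modelled.

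Counts were analysed with edgeR 4.0.16 in R 4.3.3 (filterByExpr by group, TMM, quasi-likelihood fit of all 14 livers, Benjamini-Hochberg, robust estimation off), tested on simulated data. Limma 3.58.1 and DESeq2 1.42.0 gave alternatives, and Python 3.11.15 with pandas 2.3.3 the summaries. GENCODE M21 held 24701 of the listed identifiers. Marker sums are CPM of the total count without TMM. Replicates are separate mice by the labels.

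All 8 genes are named. From each list, genes past the FDR are named (up to 5 by p), or otherwise the 3 with the smallest p, and for each member the 2 most alike. *Aldh3a1* was named after its values were seen. A few genes chosen this way were left out of the text. The members and lists were chosen with earlier results of these data known.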

Additional observations from a re-analysis of the deposited data

Results flagged for a closer look

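In 11 of the 90 groups of livers checked, for the 8 genes and the other named pathway genes, 1 liver lay far from the rest. Chance alone gives about 1 in 20 groups for normally spread values of independent genes. CPM were not shown to be such values, and RYGB livers 1 and 5 recur among those flagged. Part of the genes were also chosen by p, so the count does not measure an excess. The causes were not tested.

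RYGB liver 1 had 564.4 CPM of *Nr1i3*, with the other RYGB livers at 181 to 247, and 123.7 CPM of *Blvrb*, with the others at 48.2 to 68.9. It also had 16.13 CPM of *Nqo1*, with the others at 4.01 to 6.44. RYGB liver 5 had 327.7 CPM of *Cyp3a13* (others 161 to 206), 66.6 CPM of *Cyp1a2* (others 288 to 362), 9.589 CPM of *Tiparp* (others 5.81 to 6.74) and 1.696 CPM of *Cyp2b10* (others 0 to 0.0547). *Cyp2b10* also had 21.15 CPM in DIO liver 5 (others 0.890 to 4.41) and 33.55 CPM in GB-IL liver 2 (others 0.127 to 5.095). DIO liver 1 had 1416 CPM of *Hsp90ab1* (others 1003 to 1103), and GB-IL liver 1 had 40.29 CPM of *Tiparp* (others 7.12 to 9.30).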

How the results depend on the processing

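Of 480 log2 fold changes of the 8 genes under alternatives, 449 kept direction and side of the FDR, 9 passed it and 22 changed sign. The causes were not tested. Each of 14 livers was left out in turn.

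All genes called in GB-IL against DIO (465) were 1347 with DESeq2, 0 with only the 2 groups compared, and 0 to 3572 with a liver left out. In RYGB against DIO (0) they were 94 with DESeq2, 1690 with limma voom, 33 with only the 2 groups and 0 to 5 with a liver left out. In GB-IL against RYGB (0) they were 884 with DESeq2, 115 with limma voom, 51 without a filter on low counts and 0 to 3120 with a liver left out. Of the 8 genes, limma voom called 3 and the 2-group fit 1 in RYGB against DIO, and DESeq2 called 1 in GB-IL against RYGB. With a liver left out 0 to 1 were called in GB-IL against DIO and 0 to 3 in GB-IL against RYGB.

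In GB-IL against DIO DESeq2 called 1 other *Cyp3a* gene (*Cyp3a44*), 4 CAR and PXR targets (2 higher, 2 lower), 2 AhR targets (*Cyp1b1* and *Aldh3a1*) and 1 partner. Limma voom called 3 CAR and PXR targets, all lower and without *Sult1e1*, and 1 haem gene, lower and not *Hmox1*. The fit without a filter called 2 AhR targets (*Cyp1b1* and *Aldh3a1*), and the 2-group fit 0 CAR and PXR targets, 0 AhR targets and 0 haem genes. In RYGB against DIO DESeq2 called 1 CAR and PXR target, and limma voom 2 of these, 2 partners and 2 haem genes. In GB-IL against RYGB DESeq2 called 4 CAR and PXR targets, 2 AhR targets (*Cyp1b1* and *Aldh3a1*) and 1 haem gene, limma voom 1 CAR and PXR target, and the fit without a filter 1 AhR target (*Aldh3a1*). With a liver left out, GB-IL against DIO had 0 to 11 CAR and PXR targets, 0 to 4 AhR targets, 0 to 3 partners and 0 to 6 haem genes. GB-IL against RYGB had 0 to 13, 0 to 4, 0 to 2 and 0 to 3 of these.

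With the replicate number as a block, GB-IL against DIO had 1 gene called, with 0 CAR and PXR targets, 0 AhR targets and 0 haem genes. In that block fit the log2 value of *Cyp3a25* was -0.0007957 for GB-IL against DIO, and *Cyp3a11* had -0.18 in RYGB against DIO and 0.19 in GB-IL against RYGB. The numbers do not pair livers.

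Limma voom gave *Cyp3a11* -2.46 in GB-IL against DIO, and in RYGB against DIO *Cyp3a11* -0.48, *Cyp3a13* -0.14 and *Cyp3a25* 0.0004494. In GB-IL against RYGB it gave *Nr1i2* 0.0144. With a liver left out, GB-IL against DIO ran from -0.30 to 0.62 for *Cyp3a11*, from -0.16 to 0.28 for *Ahr* and from -0.25 to 0.30 for *Cyp3a25*. RYGB against DIO ran from -0.32 to 0.53 for *Cyp3a11* and from -0.12 to 0.17 for *Cyp3a13*. GB-IL against RYGB ran from -0.20 to 0.0608 for *Nr1i2*, from -0.26 to 0.35 for *Nr1i3*, from -0.58 to 0.54 for *Cyp3a11* and from -0.0652 to 0.48 for *Cyp3a25*.

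Groups held 4 or 5 livers, and the biological coefficient of variation was 0.543 in GB-IL against 0.244 in DIO. In DIO the longest transcript as the length moved 2 of 8 levels per length by more than the SD of their livers, *Nr1i3* and *Cyp3a11*.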

Other observations

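Other marker sums, in CPM of the total count, also differed between livers. Cholangiocyte markers (7, led by *Spp1*) summed to 311, 251, 221 and 72.2 in GB-IL livers 1 to 4, against 47.8 to 76.2 in DIO and 75.8 to 95.5 in RYGB. Macrophage markers (9, led by *Cd5l*) summed to 606, 1008, 2198 and 924 in the same GB-IL livers, to 1084, 465, 565, 455 and 793.5 in RYGB livers 1 to 5, and to 396 to 705 in DIO. Stellate cell markers (9, led by *Dcn*) summed to 877 in GB-IL liver 1 and 803 in RYGB liver 5, to 284 to 439 in the other operated livers, and to 238.5 to 370 in DIO. Endothelial markers (7, led by *Stab2*) summed to 558 in RYGB liver 5 and to between 165 and 252 in the other livers.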
